A study of Bos taurus with 16 samples.

Results

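The genes described here drive and brake the cell cycle: the cyclins A, B, D and E, the cyclin-dependent kinases (CDK), the CDC genes named after yeast cell division cycle mutants, the MCM replication helicase, the Aurora and Polo-like kinases, BUB checkpoint proteins, CDK inhibitors, and the proliferation genes MKI67 and TOP2A. They were chosen by symbol, and 78 of the 22358 loci in the count tables carried such a symbol, with CDK10 given to 2 loci. By the step of the cycle at which each is known to act, 11 loci were placed in G1, 12 in the licensing and firing of replication origins, 14 in G2 and mitosis, 10 in the spindle checkpoint and mitotic exit, and 7 among the CDK inhibitors. A further 15 were CDK loci, most with main roles in transcription or still little studied, and 9 were CDC or Polo-like kinase loci with other main roles.

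A dividing cell passes from G1 into DNA synthesis when D- and E-type cyclins activate their kinases, replicates each origin of DNA once because the MCM helicase is loaded only in G1, and enters mitosis when B-type cyclins activate CDK1. The spindle checkpoint holds the anaphase-promoting complex inactive until every chromosome is attached, and CDK inhibitors slow or stop the cycle. In a blastocyst these genes act in the trophectoderm, the future placenta, and in the inner cell mass, the future fetus, which both divide.

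RNA came from embryos of 8 superovulated Holstein cows, 4 on a control diet and 4 on a methionine-rich diet, and the question was whether maternal methionine alters the transcriptome of the preimplantation embryo. Both treatments shared a basal diet, to which rumen-protected methionine was added in one. The cows were inseminated and blastocysts were flushed from the uterus, although the sample labels call the tissue IVF embryos. The blastocysts of each cow were divided into 2 pools, whose RNA was amplified before sequencing, and pools of one cow are relatives. A pair of sires was used, balanced over the cows, and the methionine-rich pools held more blastocysts on average. Pools are named by treatment (C or M), cow and pool, as in C2.1. In such bulk samples fewer cells of a type and less RNA per cell cannot be told apart.

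The results rest on 15 pools, 7 control and 8 methionine-rich, with total counts of between 5624126 and 7826542. Pool C3.2, with 1745048 counts, was left out. Levels are given as CPM, the count of a locus after its pool's total is scaled to 1000000, and are not divided by gene length, so each gene is compared only with itself. A floor of 3 counts corresponded to between 0.383 and 0.533 CPM in the 15 pools. Of 8 loci of trophectoderm markers, 6 had counts in all 15 pools, with keratin KRT18 between 1757 and 6291 CPM, but CDX2 was at 0 in C4.1, M8.1 and M8.2 and TFAP2A was at 0 in most pools. Pool C2.1 stood apart, with a summed level of 2420 CPM over 12 leukocyte markers against at most 37.5 CPM in the other 14 pools. Most of that sum came from LAPTM5 (1239 CPM), NKG7 (480), TYROBP (377) and LCP1 (183), with SPI1 at 78.6 and ITGB2 at 40.2. The other markers were low in C2.1: CD68, CD52 and CORO1A reached at most 8.0 CPM, and CD3E and CD79A were at 0. PTPRC, at 3.2 CPM, was below its 6.68 CPM in M8.1.

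Transcripts of the cycle were detected broadly. At least 1 count was found in each of the 15 pools for 58 of the 78 loci, and at least 10 counts in each pool for 43. Summed over the 78 loci, the level ranged from 2401 to 3427 CPM with a median of 2906 in control pools and from 2237 to 3469 CPM with a median of 2851 in methionine-rich pools. The ranges overlapped almost entirely. For testing, the CPM summed over the 15 pools had to reach 15, which 67 of the 78 loci did, among 10519 of all loci.

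**Figure D1:**
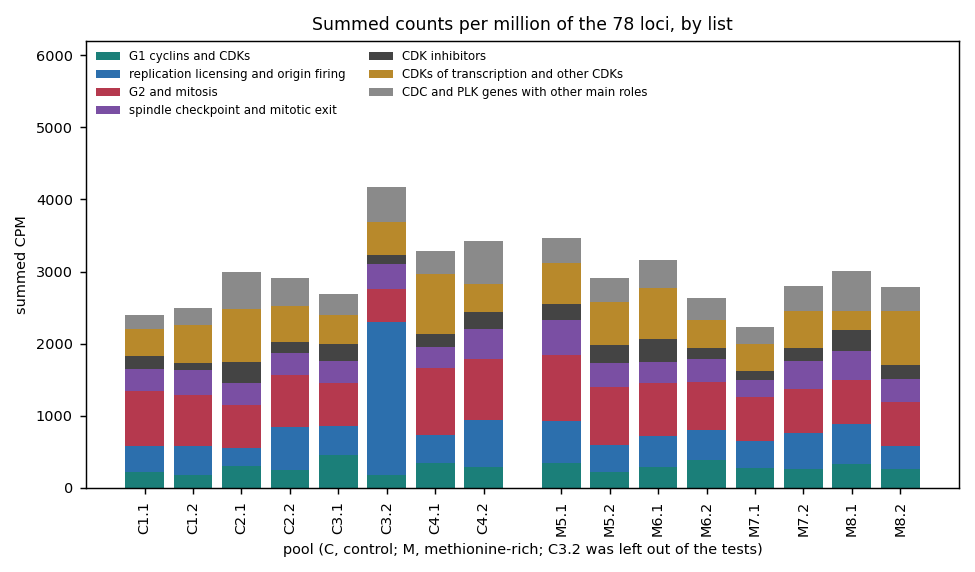
Summed CPM of the 78 loci in each of the 16 pools (y axis), stacked by list. The 15 pools used in the tests lie between 2237 and 3469 CPM, and the bar of C3.2, which was left out, is tallest in the replication list.

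The genes that went undetected, or nearly so, were also part of the picture. CDKN2B and the second CDK10 locus had 0 counts in all 15 pools, BUB1B, a kinase of the spindle checkpoint, had 3 counts in the 15 pools together, and PLK5 had 3 counts, all in M8.1. CCND1, the D-type cyclin D1, had 10 counts in all and 0 in 11 pools, while its relatives CCND2 and CCND3 had at least 444 and at least 209 counts in every pool. PLK1, the main Polo-like kinase of mitosis, had 46 counts in all, 26 of them in C1.2, and 0 in 9 pools. For the CDK inhibitors CDKN1C and CDKN2A the totals were 63 counts, 40 of them in M5.2, and 77 counts, with 33 each in M6.1 and M6.2. CDC20B, CDK15 and CDK19 completed the 11 loci that were not tested, with 8, 44 and 27 counts. It is not known if their reads were counted at other loci.

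No cell cycle gene differed between treatments by the criterion applied to all loci. Of the 67 loci tested, 0 passed an FDR of 0.1 with at least a 2-fold difference in edgeR's exact test, against 110 of all 10519 loci (1.05%). At so low a share, 0 of 67 does not set the members apart from other loci. The quasi-likelihood test of edgeR and voom in limma, in which the cow was a random effect, called 0 of all loci (0.0%). Nor do they set the members apart. Most estimates lay close to 0: 59 of the 67 loci (88.1%) were within 1 of 0 on the log2 scale, against 75.3% of all loci tested. The members had a higher median of the average log2 CPM, 4.37 against 3.57 for all loci tested. The shares were not matched for this level. With 33 estimates above 0 and 34 below, the median log2 fold change, methionine-rich over control, was -0.01 (all loci -0.05).

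At an unadjusted p under 0.05, the exact test and the quasi-likelihood test each marked 1 member, where 8.54% and 8.64% of all loci were marked. That member, CDKN2C, reached the summed CPM of 15 only through methionine-rich pools. Voom marked 3, CDC7, CDC23 and CDC45, or 4.48% of the members against 4.0% of all loci. Cow means of log2(CPM + 1) did not overlap between treatments for 2 members, MCM3 and CDK4, or 2.99% against 2.29% of all loci. The members' share was below that of all loci in both edgeR tests and slightly above it by voom and by cow means, and these differences between shares were not tested.

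Voom's intervals set each difference against the spread between these pools. The fit used a single within-cow correlation for all loci (0.0351), so sister pools counted as nearly independent. For members whose cows differed widely, such as CCND3 (cow means 36.5 to 162 CPM in control), an interval over cows could be wider. Such intervals were not computed. Unless another fit is named, log2 fold changes of single genes are from the exact test, also where voom's interval stands beside them. Voom's 95% interval lay wholly between a 2-fold decrease and a 2-fold increase for 15 of the 67 members (22.4%; all loci 15.6%), among them CCNB1, CCNB2, CCND2, CCND3, AURKA, TOP2A, MCM4, MCM6, MCM7, BUB3, CDKN2D and CDK9, with CDC37, CDC40 and CDC42. The shares of 22.4% and 15.6% were not matched for level either. For the other 52 members a difference of 2-fold or more in at least one direction was not excluded by the interval. The interval contained 0 for 64 of 67 members (95.5%; all loci 96.0%), and its width had a median of 2.22 on the log2 scale, from 0.96 for BUB3 to 6.02 for MCM9.

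**Figure D2:**
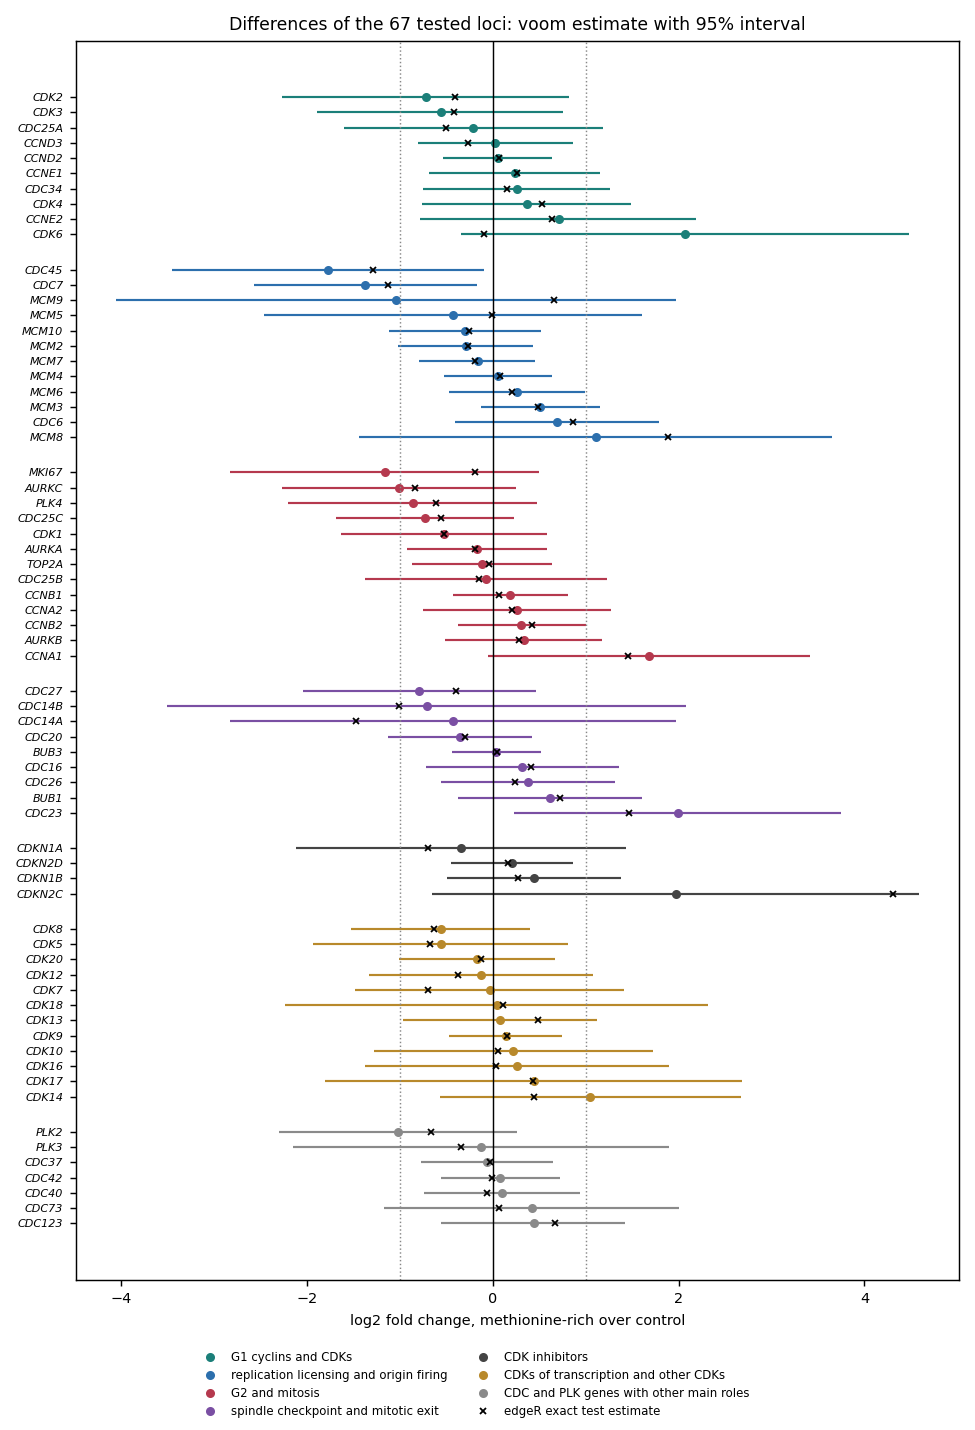
Log2 fold change (x axis, methionine-rich over control) of the 67 loci tested, grouped by list, with voom's estimate (circle), its 95% interval (line) and the estimate of edgeR's exact test (cross). Dotted lines mark a 2-fold difference, and the interval of 64 loci contains 0.

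Among the genes of G1, the D-type cyclins that answer growth signals had overlapping levels in both treatments. CCND2 ranged from 66.6 to 184 CPM (median 118) in control pools and from 72.2 to 229 CPM (median 132) in methionine-rich pools. The difference was 0.07 on the log2 scale by the exact test and 0.06 by voom (95% interval -0.53 to 0.64). The ranges overlapped over most of their span. CCND3 lay between 35.9 and 187 CPM (median 51.8) in control and between 50.2 and 92.8 CPM (median 69.0) in methionine-rich pools, with C3.1 and C4.1 above every other pool. The estimate was -0.26 by the exact test and 0.03 by voom.

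The partner kinases of these cyclins differed in their evenness. CDK4 was present in every pool, between 1.96 and 7.26 CPM (median 4.78) in control and between 2.77 and 15.8 CPM (median 5.28) in methionine-rich pools. Its cow means of log2(CPM + 1) were between 2.03 and 2.63 in control cows and between 2.65 and 3.17 in methionine-rich cows, so that all 4 methionine-rich cows lay above all 4 control cows, by a margin that was small beside the distance between sister pools. With TMM-normalized CPM the cows overlapped. The exact permutation test over the 70 assignments of cows gave p = 0.0286, the smallest that 4 cows against 4 allow, and 1 after adjustment over all loci. The exact test over pools gave a log2 fold change of 0.53 (FDR 0.998).

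CDK6 was far more uneven. It reached 57.1 CPM in C2.1, 71.4 in C3.1 and 71.1 in M8.1, and was at most 22.2 CPM in the other 12 pools, with 4 control pools at under 1.5 CPM. Its median was 1.39 CPM in control and 11.1 CPM in methionine-rich pools, but the means were close, and the estimate was -0.09 by the exact test and 2.07 by voom (95% interval -0.34 to 4.48). CDK6 and MCM9 (0.66 and -1.04) were the members whose estimates differed in sign between the fits with at least one of them 0.5 or more from 0. C2.1 was also the pool with some leukocyte markers high, whose part in its CDK6 level was not tested.

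The E-type cyclins, which with CDK2 start DNA synthesis, were in every pool. CCNE1 lay between 5.01 and 16.2 CPM (median 11) in control and between 6.95 and 27.0 CPM (median 13.3) in methionine-rich pools. CCNE2 spanned 4.18 to 26.8 CPM (median 14.8) and 1.08 to 42.8 CPM (median 20.5), and both its highest pools, M5.1 and M5.2, came from cow 5, while its lowest, M8.2, was also methionine-rich. The log2 fold changes were 0.26 (FDR 1) and 0.64 (FDR 0.972). CDK2 had a median of 3.91 CPM in control and 2.28 CPM in methionine-rich pools (log2 fold change -0.41, FDR 1), and CDC25A, the phosphatase that activates it, 4.22 and 3.27 CPM (-0.50, FDR 1). Over the 10 tested genes of G1, 5 estimates were above 0 and 5 below, with a median of -0.01.

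**Figure D3:**
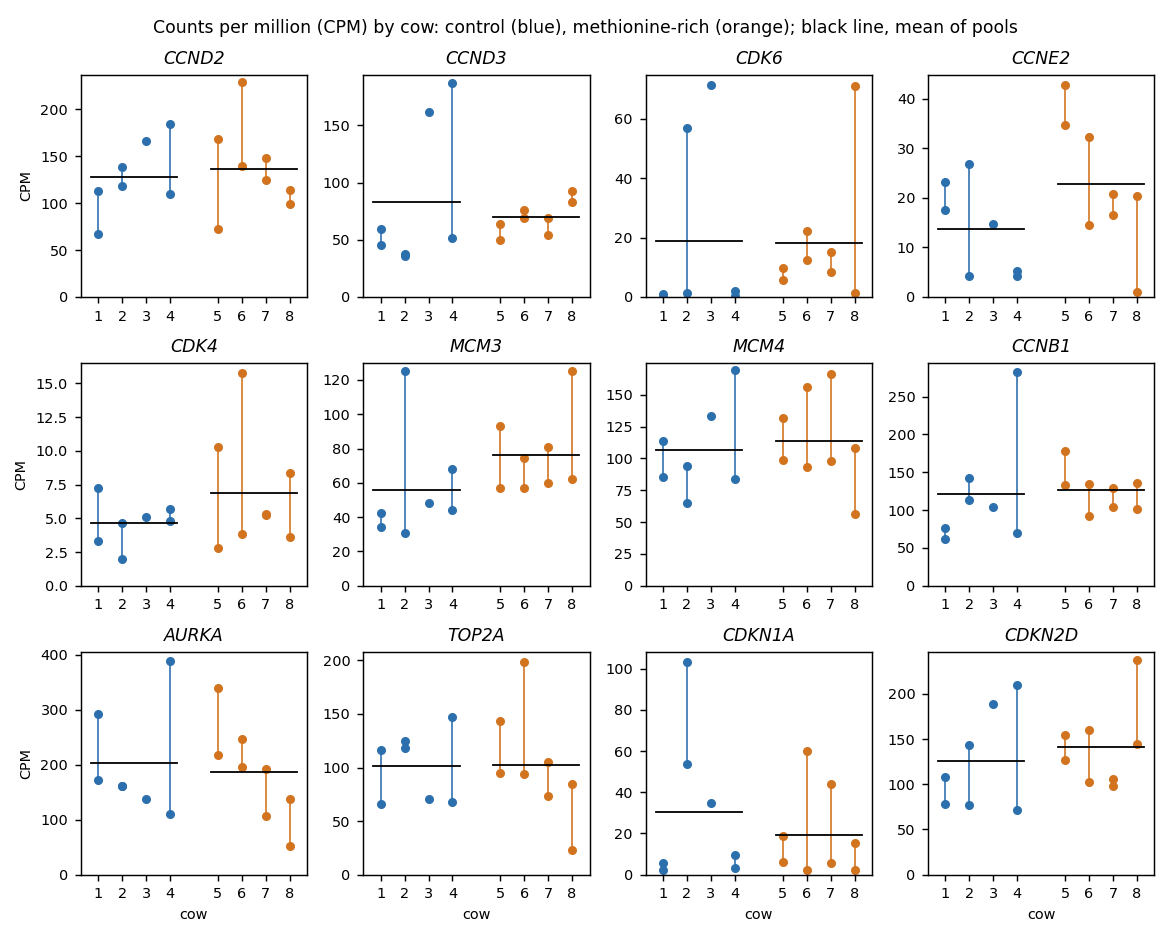
Level of 12 cell cycle genes in CPM (y axis, from 0) by cow (x axis), with a point for each pool, a line joining sister pools, and a black bar at the mean of the pools of each treatment. The treatments overlap for every gene, and CDK6, CDKN1A and MCM3 show pools of one cow far apart.

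Replication licensing genes showed the same overlap. The 6 subunits of the replicative helicase, MCM2 to MCM7, were all tested, and none passed the criterion. MCM4 ranged from 64.9 to 169 CPM (median 94.1) in control and from 56.4 to 166 CPM (median 103) in methionine-rich pools (log2 fold change 0.08, 95% interval -0.52 to 0.64 by voom). MCM7 lay between 28.6 and 90.1 CPM (median 46.3) and between 33.2 and 61.9 CPM (median 44.7), with an estimate of -0.19 and an interval of -0.79 to 0.46. These were among the steadiest members.

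MCM3 was the subunit whose cow means did not overlap. It lay between 30.6 and 125 CPM (median 44.3) in control pools and between 57.0 and 125 CPM (median 68.3) in methionine-rich pools. Of the control pools, C4.2 was within the methionine-rich range, C2.2 was level with its highest pool, M8.1, and the other 5 were below it. Its cow means of log2(CPM + 1) were between 5.29 and 5.98 in control and between 6.05 and 6.47 in methionine-rich cows, without overlap (exact permutation p = 0.0286, 1 after adjustment). The margin depended on the scale: cow means of CPM itself overlapped, with cow 2 at 77.8 CPM above 3 of the methionine-rich cows, and without pool C2.1 the means on the log2 scale overlapped too. The log2 fold change was 0.49 (FDR 0.87), with a voom interval of -0.13 to 1.15.

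MCM6 ranged from 38.7 to 189 CPM (median 51.1) in control and from 50.4 to 167 CPM (median 78) in methionine-rich pools, and 1 pool of each treatment, C4.2 and M8.1, was far above the rest. MCM2 had medians of 34.5 and 26.6 CPM (log2 fold change -0.27, FDR 1). MCM5 was sparse in these libraries, with medians of 0.929 and 0.839 CPM and between 0 and 55 counts, although its protein is part of the same ring. Its estimate by the exact test was -0.01, but 0.87 without cow 4 and -1.54 without cow 5. Voom gave -0.43 with a wide interval, from -2.46 to 1.61.

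Of the genes that fire the loaded origins, CDC45 and CDC7 were named after their values were seen, because voom marked them. CDC45, which travels with the helicase, lay between 8.36 and 54.7 CPM (median 37.3) in control and between 0.273 and 28.4 CPM (median 10.9) in methionine-rich pools. In 4 control pools it was above every methionine-rich pool, and the other 3, C1.1, C2.1 and C4.2, were inside the methionine-rich range. Voom gave -1.77 with a 95% interval of -3.45 to -0.09 (unadjusted p = 0.0401, FDR 0.993), and the exact test -1.29 (p = 0.0594, FDR 0.627).

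CDC7, the kinase that activates the helicase, had 6.20 to 29.7 CPM (median 19.4) in control and 1.08 to 24.7 CPM (median 7.84) in methionine-rich pools, which overlapped. Voom gave -1.37 (95% interval -2.57 to -0.17, unadjusted p = 0.0274, FDR 0.993) and the exact test -1.13 (FDR 0.66). CDC6, which loads the helicase, and MCM10, which helps to start the fork, had estimates of 0.87 (FDR 0.825) and -0.25 (FDR 1). The median over the 12 genes of the list was 0.04, with 6 estimates above 0 and 6 below.

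For the genes of G2 and mitosis, B-type cyclins and Aurora kinases were in every pool. CCNB1, the cyclin that takes CDK1 into mitosis, had 61.5 to 283 CPM (median 104) in control and 91.7 to 178 CPM (median 131) in methionine-rich pools. The log2 fold change was 0.07 by the exact test and 0.19 by voom, with an interval of -0.43 to 0.81. The lowest 3 and the highest of the 15 values were all in control pools. CCNB2 had 49.0 to 99.3 CPM (median 62.1) and 47.0 to 170 CPM (median 77.9), with both pools of cow 8 above every other pool (log2 fold change 0.42, FDR 0.94, but 0.0 without cow 8). CDK1 itself had medians of 8.40 and 5.99 CPM (-0.52, FDR 0.998), and CCNA2, the cyclin of S phase and G2, 13.7 and 16.4 CPM (0.21, FDR 1).

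AURKA, the Aurora kinase of the centrosome, ranged from 111 to 388 CPM (median 162) in control and from 52.7 to 340 CPM (median 194) in methionine-rich pools, an estimate of -0.19 with a voom interval of -0.92 to 0.58. The lowest pool was M8.2 and the highest C4.1. AURKB, which acts at the centromere, had medians of 29.2 and 33.1 CPM (0.28, FDR 1). AURKC, best known from meiosis and the early embryo, had medians of 24.4 and 20.2 CPM and a wider span, from 3.13 to 82.3 CPM over the 15 pools (-0.84, FDR 0.836).

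The proliferation genes did not pass the criterion either. TOP2A, the topoisomerase that untangles replicated DNA, had 65.8 to 147 CPM (median 116) in control and 23.0 to 199 CPM (median 94.4) in methionine-rich pools, with the lowest and the highest value both methionine-rich (log2 fold change -0.04, voom interval -0.87 to 0.64). MKI67, which encodes the Ki-67 antigen of dividing cells, varied more, from 5.16 to 30.6 CPM (median 15.9) in control and from 0.128 to 47.8 CPM (median 8.87) in methionine-rich pools (-0.19, FDR 1, and -1.12 without cow 8). In M7.1 it rested on 1 count, and in M8.2, the pool lowest for AURKA and TOP2A, it was highest.

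PLK4, the kinase of centriole duplication, had 6.0 to 56.2 CPM (median 22.4) in control and 1.35 to 31.6 CPM (median 18.5) in methionine-rich pools, and both pools of cow 8 were the lowest of the 15 (-0.61, FDR 0.969). The mitotic phosphatases CDC25B and CDC25C had estimates of -0.15 (FDR 1) and -0.56 (FDR 0.919), and CDC25C ranged from 14.3 to 233 CPM. The A-type cyclin CCNA1, named after its values were seen, had a median of 1.24 CPM in control and 5.13 CPM in methionine-rich pools. Its estimate was 1.46 (FDR 0.746), with an unadjusted exact permutation p over cows of 0.0571. CDC45 and CDC23 had the same permutation p. Of the 13 tested genes of G2 and mitosis, 5 estimates were above 0 and 8 below, and their median was -0.15.

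In the spindle checkpoint, BUB3, which docks checkpoint kinases at the kinetochore, had the smallest SD of the 43 cell cycle genes with at least 10 counts in every pool. It had 127 to 227 CPM (median 152) in control and 133 to 294 CPM (median 150) in methionine-rich pools, an estimate of 0.05 with the interval -0.44 to 0.52. BUB1, its partner kinase, had 13.6 to 57.0 CPM (median 25.5) and 11.1 to 83.9 CPM (median 45.5). Its 3 highest pools, M8.1, M6.2 and M7.2, were methionine-rich, but so was its lowest, M7.1 (0.73, FDR 0.82).

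CDC20, the activator of the anaphase-promoting complex, had medians of 43.5 and 44.8 CPM, and 1 pool of each treatment, C4.2 and M8.1, exceeded 100 CPM (-0.30, FDR 1). Among subunits of that complex, CDC23 was marked by voom, at 1.99 (95% interval 0.23 to 3.75, unadjusted p = 0.0289, FDR 0.993), and is named here after its values were seen. It had 0.178 to 23.6 CPM (median 2.06) in control and 2.23 to 49.1 CPM (median 11.1) in methionine-rich pools. The exact test gave 1.47 (FDR 0.701), and the highest control pool, C4.1, was above 7 of the 8 methionine-rich pools. The other subunits among the members, CDC16, CDC26 and CDC27, had estimates of 0.41, 0.24 and -0.39. Over the 9 tested genes of this list the median was 0.05.

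The tested CDK inhibitors had a median SD of 1.02 between pools of a treatment, on the scale of log2(CPM + 1). CDKN2D, an inhibitor of CDK4 and CDK6, was in every pool, with 72.0 to 210 CPM (median 108) in control and 97.9 to 238 CPM (median 136) in methionine-rich pools (log2 fold change 0.17, voom interval -0.45 to 0.87). CDKN1B, which encodes p27, had 19.4 to 99.4 CPM (median 25.6) and 14.7 to 92.4 CPM (median 51.1), with an estimate of 0.27 (FDR 1). The ranges of the treatments overlapped for both genes.

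CDKN1A, which encodes p21 and is induced by p53 after DNA damage, ranged from 2.40 to 103 CPM (median 9.38) in control and from 2.19 to 60.1 CPM (median 10.9) in methionine-rich pools. Its level was highest in C2.1, the pool with some leukocyte markers high, then in M6.1 and C2.2. It was at most 9.38 CPM in 8 of the 15 pools. The log2 fold change was -0.70 (FDR 0.98), and its direction turned, to 0.74, without cow 2 and, to 0.18, without pool C2.1 alone.

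CDKN2C, the one gene with an unadjusted p under 0.05 in the exact test, was named after its values were seen. It had at most 0.356 CPM in the 7 control pools, under the floor of 3 counts, and at most 0.528 CPM in 6 of the 8 methionine-rich pools. The other 2 were M5.1 at 18.6 CPM and M7.1 at 5.49 CPM, and M5.1 alone, with 135 counts, held 70.7% of the gene's counts. The 18.6 CPM in M5.1 alone took CDKN2C past the summed CPM of 15. Its test was thus not independent of the group where it was high. The estimate of 4.31 in the exact test (p = 0.0162, FDR 0.334) depends on the prior count, and the sister pools M5.2 and M7.2 were at 0.528 and 0.304 CPM.

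The CDK loci whose main roles lie in transcription or elsewhere had a median log2 fold change of 0.05 over 12 tested. CDK9, the kinase of the elongation factor P-TEFb, had medians of 124 and 127 CPM (0.15, voom interval -0.47 to 0.75). CDK12, which also phosphorylates RNA polymerase II, spanned 29.1 to 509 CPM in control and 38.7 to 382 CPM in methionine-rich pools, with -0.37 (FDR 1). CDK16, a kinase with roles outside the cycle, spanned 4.63 to 111 and 5.11 to 127 CPM, with 0.04 (FDR 1). Among CDC genes with other main roles, CDC42, a small GTPase of cell shape, had medians of 138 and 171 CPM. Its estimate was -0.01 by the exact test and 0.08 by voom (interval -0.56 to 0.72). The chaperone partner CDC37 and the splicing factor CDC40 gave -0.03 and -0.06.

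Other genes of the cycle, from 4 lists of regulators outside the symbols above, gave 0 calls as well. Against the 1.05% of all loci called, that does not set them apart. Of the tested loci, 0 of 20 in the list of G1/S regulators, 0 of 20 in DNA replication, 0 of 22 in G2/M and cytokinesis, and 0 of 24 among kinetochore, cohesin and anaphase-promoting complex genes passed the criterion in either direction by the exact test. At an unadjusted p under 0.05 that test marked 3, 1, 1 and 1 of them, or 6.98% of 86 against 8.54% of all loci. Their median log2 fold changes were 0.03, 0.01, -0.06 and 0.17.

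Variation among pools of the same treatment was large for the cell cycle genes, as for other genes. The SD of log2(CPM + 1) within treatment had a median of 0.88 over the 67 members and 1.0 over all loci tested. Where at least 10 counts were found in every pool, the medians were 0.73 for 43 members and 0.75 for 4970 loci. The steadiest of these 43 were BUB3 (0.36), MCM7 (0.43), MCM4 (0.47), CCNB2 (0.48) and CCND2 (0.49), and the most variable were CDKN1A (1.77) and CDK16 (1.67). CDK6, with fewer than 10 counts in some pools, reached 2.05.

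**Figure D4:**
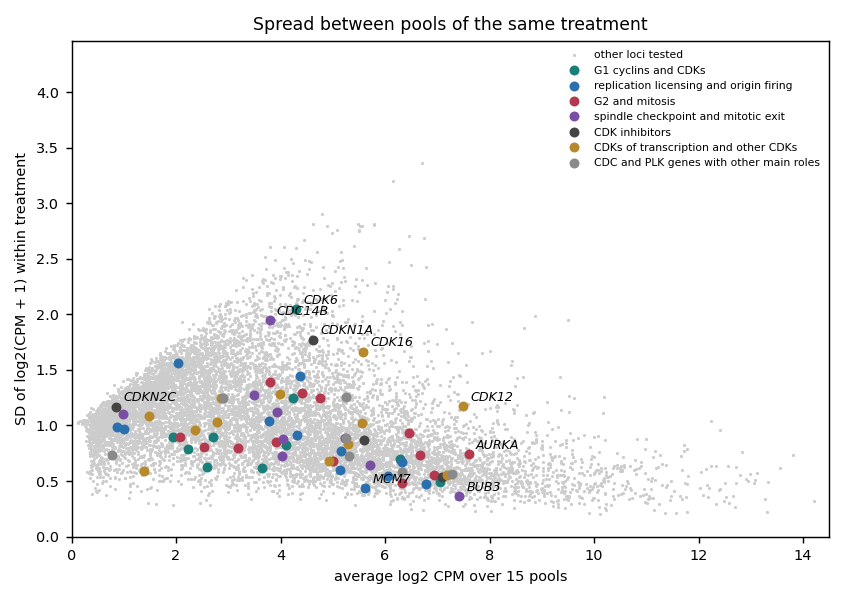
SD of log2(CPM + 1) between pools of the same treatment (y axis) against the average log2 CPM (x axis) for all 10519 loci tested (grey) and the 67 cell cycle loci (coloured by list). The cell cycle loci lie within the cloud of other loci, with BUB3 and MCM7 in its lower part and CDK6 and CDKN1A in its upper part.

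Sister pools of one cow were about as far apart as pools of different cows. For the 67 members the median difference on the log2 scale was 0.8 between sister pools and 0.83 between cows of a treatment. A difference of 2-fold or more between sister pools was found for 18 members in cow 1 (26.9%; all loci 40.1%), 19 in cow 7, 25 in cow 6, 28 in cow 5, 30 in cow 2, 33 in cow 4 and 35 in cow 8 (52.2%; all loci 44.1%). CDK6 differed by up to 5.03 on the log2 scale between sister pools (cow 8), while CDC37 never differed by more than 0.57 and MCM4 by no more than 1.0.

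Most lists showed little common movement across pools. The highest medians were those of the replication genes and of the CDC and PLK genes with other main roles. Over the 15 pools, centred within treatment, the median correlation of 903 pairs among the 43 members with at least 10 counts in every pool was 0.05, equal to that over all pairs of 4970 loci, and it was 0.12 for pairs within a list. The replication genes had the highest median, 0.36 over 21 pairs (quartiles 0.12 and 0.4), among them MCM6 with MCM3 at 0.71. MCM6 reached 0.72 with CDC20 and with CCNB1, which are of other lists, and pools C4.2 and M8.1 were far above the rest for MCM6. The CDC and PLK genes with other main roles followed with 0.27 over 10 pairs (quartiles 0.23 and 0.4). The 55 pairs of the G2 and mitosis list had a median of 0.06. Within that list AURKA and TOP2A varied together (0.76) and CCNB2 and PLK4 went opposite ways (-0.82). The pools share total depth, cows and amplification, and these correlations are a description.

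**Figure D5:**
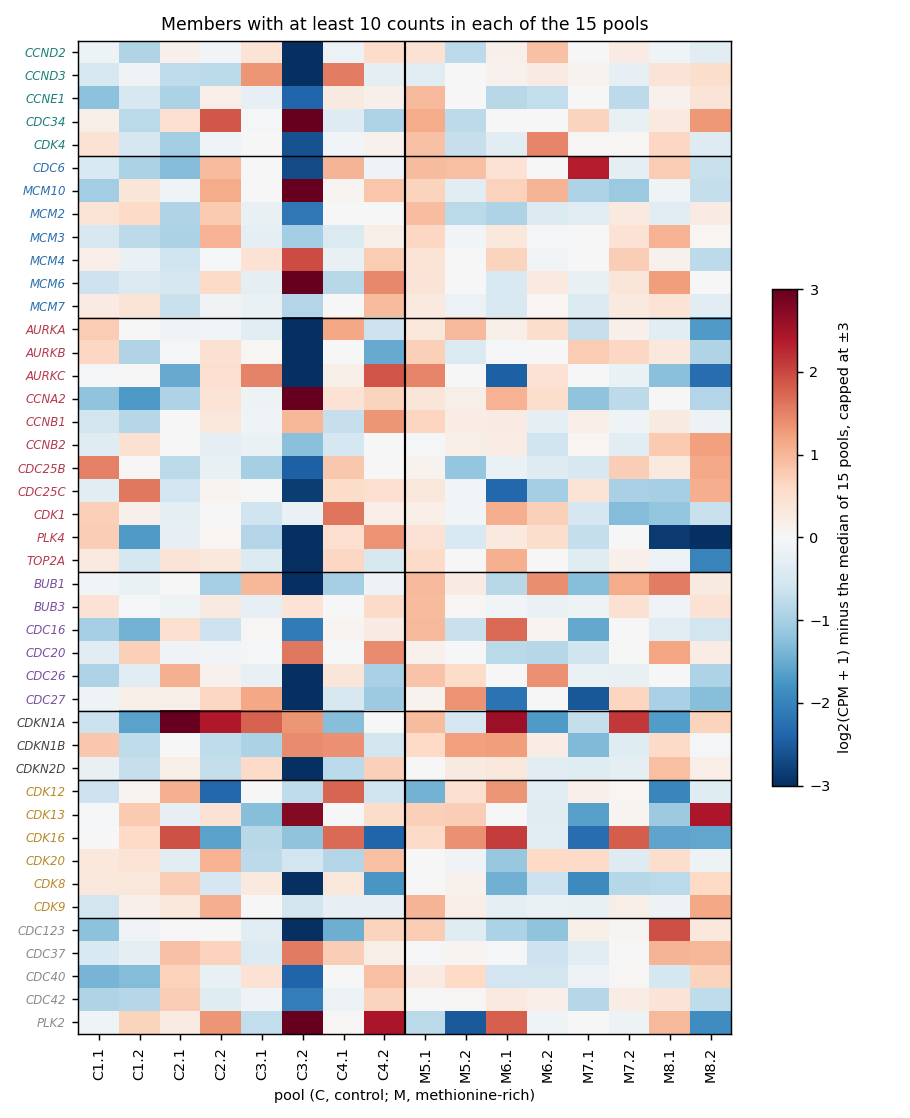
Level of the 43 cell cycle genes with at least 10 counts in each of the 15 pools (rows, coloured and ruled off by list) in all 16 pools (columns), as log2(CPM + 1) minus the median of the 15 pools. No list separates control (left of the line) from methionine-rich pools, and C3.2 differs from every other pool.

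Pool C3.2, left out of the comparisons above, stood apart over all loci, those of the cell cycle included. Of the 67 members tested, 10 (14.9%) were above all 15 other pools and 32 (47.8%) below all of them, against 9.91% and 35.2% of all loci tested. MCM10 reached 1081 CPM, 15.4 times its highest value elsewhere (70.1 CPM), with 1886 counts. MCM6 was at 578 CPM, MCM4 at 385 CPM, CCNA2 at 170 CPM (5.23 times the highest other pool) and the ubiquitin-conjugating enzyme CDC34 at 167 CPM.

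In the same pool AURKA was at 5.16 CPM, against at least 52.7 CPM in the other 15, CCND2 at 9.17 CPM against at least 66.6, CDKN2D at 2.29 CPM against at least 72.0, and TOP2A at 0.573 CPM, which is 1 count and under the pool's floor of 1.72 CPM, against at least 23.0. With all 16 pools in the exact test, 356 of 10803 loci were called, and among the members MCM10 alone was called, with a log2 fold change of -3.06 (FDR 0.0236). That call rests on C3.2, since the estimate was -0.25 without it.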

How the data were processed

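The authors mapped the reads to bosTau7 with TopHat2 2.0.4, assembled transcripts with Cufflinks 2.0.2 and counted reads per gene with HTSeq. The deposited values are counts, without normalization, in 22552 rows per pool. A locus listed under several names (182 loci) was entered once. Totals ranged from 5624126 to 7826542 in 15 pools. Amplification before sequencing can widen differences between pools.

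Following the study, pool C3.2 was left out, as few of its reads lay on exons, loci with a summed CPM of at least 15 were kept and compared with edgeR 4.0.16 (R 4.3.3; TMM normalization, common and tagwise dispersion, exact test, prior count 0.125), with Benjamini-Hochberg adjustment over all 10519 loci. A call needed a 2-fold difference or more and an FDR below 0.1. The common dispersion was 1.142. The quasi-likelihood test stands beside it, and voom in limma 3.58.1, in which the cow was a random effect (correlation within cow 0.0351), gave intervals. Like the p-values over pools, they set a difference against the spread between these samples, with sister pools taken as independent or nearly so. DESeq2 1.42.0 was an alternative. Cow means were compared by exact two-sided permutation tests over 70 assignments. Each fit was run on simulated counts with a far lower dispersion than these data and no cow effect. Recovery of changes at a dispersion of 1.142 was not checked. Floors cover counting error only.

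The members and lists were chosen with earlier results of these data known. Named members were those called, those whose cow means did not overlap, the 3 of each list with the highest summed CPM, and a fixed set of cyclins, kinases, inhibitors and helicase, mitosis and checkpoint genes. Others are marked in the text or belong to a count of all members of a class, except CDC6, MCM10 and CDC34. Those genes were named outside these rules. Gene lengths, promoters and protein sequences were not used here.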

Additional observations from a re-analysis of the deposited data

Results flagged for a closer look

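Of 76 groups of pools (38 genes in 2 treatments), 14 (18.4%) held a pool farther from the others than Dixon's 95% limit. Chance flags about 1 in 20 groups of normal values, but CPM are skewed, and 28.4% of the groups of all loci tested were flagged. Pool M8.1 gave 4 of them: MCM6 at 167 CPM (next pool 91.1), CDC20 at 102 CPM (52.3), CDKN2D at 238 CPM (160) and CDK6 at 71.1 CPM (22.2). Pool C4.2 gave 3: MCM6 at 189 CPM (104), CCNB1 at 283 CPM (143) and MCM5 at 6.94 CPM (1.72). In C2.2, CDK9 was at 265 CPM (154) and MCM3 at 125 CPM (67.8), the value that made cow means of MCM3 overlap on the CPM scale. In M5.1, AURKC was at 61.3 CPM (29.5) and BUB3 at 294 CPM (208). The others were BUB1 at 57.0 CPM in C3.1 (28.3), CDK1 at 24.6 CPM in C4.1 (12.8) and CDC25C at 233 CPM in C1.2 (114). All 14 were the highest pool of their treatment. Their causes were not tested.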

How the results depend on the processing

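Of 19 alternatives, 18 called 0 members. In 13 of these between 55 and 153 loci were called in all, and in the other 5 (quasi-likelihood test, voom, 10 counts in every pool, blastocysts per pool as covariate, pool number as a replicate block) 0 loci of any kind, which says nothing about the members. With all 16 pools 1 was called, MCM10, which rests on the added pool. Of 716 values of 38 named members under these alternatives, 701 moved by less than the spread between cows, 0 passed the threshold, and 89 had the opposite sign, with both values at least 0.5 from 0 only for CDKN1A without cow 2. List medians moved by more in 4 of 152: G2 and mitosis to 0.08 with the covariate, replication to -0.23 by voom and to 0.34 without cow 4 (between -0.15 and 0.34 with a cow left out), and CDK inhibitors to 1.20 with every locus with a count. The cause was not tested.

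Members without overlap of cow means numbered 4 with all 16 pools (BUB1, CCNA1, MCM3, CDK4; 5.97% against 2.43% of all loci), 1 with TMM-normalized CPM (MCM3, with CDK4 lost; 1.49% against 2.39%), and between 3 and 6 with a cow left out (4.48% to 8.96% against 3.93% to 5.3%). Without C2.1, where MCM3 was lost, they were CDC45 and CDK4, as they were for cow means of CPM without logarithms, an alternative added after seeing the data. Pool numbers within a cow mark no shared batch in the labels. Of depth, the 11 untested members and those near 3 counts allow no statement on a difference.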
